A study of Mus musculus with 8 samples.

Results

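The matrix metalloproteinases (MMPs), the ADAMTS proteases, the ADAMTS-like proteins and the tissue inhibitors of metalloproteinases (TIMPs) were followed through adipogenesis of 3T3-L1 cells, a clonal line of mouse preadipocytes from Swiss albino embryos that turns into fat cells in culture. Members were taken by gene symbol, as every Mmp, Adamts, Adamtsl and Timp gene of the deposited table, and numbered 51 of 22798 genes: 23 Mmp, 19 Adamts, 5 Adamtsl and 4 Timp genes. RNA sequencing was done in 8 libraries, 2 from each of 4 stages, and the labels do not say whether the 2 were separate cultures, so p-values measure the spread between libraries, which may be technical. The stages were exponential proliferation in medium with 10% fetal bovine serum, quiescence (confluent for 48 hours), clonal expansion (10 hours into the adipogenic cocktail) and differentiation (6 days from its start). The cocktail was isobutylmethylxanthine (0.25 mM), a phosphodiesterase inhibitor, with dexamethasone (1 µM), a glucocorticoid, and insulin (5 µg/µl as labelled), given for 48 hours and followed by insulin alone. The quiescent cells had no cocktail, and all stages shared the serum medium.

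MMPs are zinc proteases, secreted or anchored in the plasma membrane as inactive precursors, that cut collagens, gelatin and other matrix proteins. ADAMTS proteins are secreted relatives with thrombospondin repeats that trim procollagens or cut proteoglycans such as versican, and ADAMTS-like proteins keep the repeats but lack the protease part. TIMPs bind the active site of MMPs and block it. During fat cell formation a fibroblast's fibrillar matrix gives way to a basement membrane, and these enzymes and their inhibitors take part in that change.

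Values are the authors' pseudo-counts, which are read counts brought to a common library size. They summed to between 122413485 and 151529060 per library. A gene was tested where its mean over the 8 libraries was at least 10, which left 37 members of 14647 genes. Fold changes are differences on the log2(value + 1) scale from limma, given ± SE, with p adjusted by Benjamini-Hochberg over all genes tested and a gene called at an adjusted p under 0.05. That scale understates the change of genes with low values. The adipocyte markers identified the differentiated libraries, as all 11 were called higher than at quiescence and their summed level was 5097002 and 5400335 against at most 147640 elsewhere. Of the 11, Lep passed the mean of 10 only through the differentiated libraries. All 10 preadipocyte and fibroblast markers were called lower at differentiation, with sums of 2046239 and 2387599 against 7796547 and 7064522 at quiescence. In such bulk RNA, fewer cells of a type and less RNA per cell cannot be told apart, and cells that had not differentiated were not separated from fat cells.

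The members were at their highest at quiescence and at their lowest at differentiation more often than at any other stage. Of the 37 tested, 21 had their highest stage mean at quiescence, 6 at differentiation, 5 at proliferation and 5 at clonal expansion. The lowest stage was differentiation for 17, proliferation for 9, clonal expansion for 9 and quiescence for 2. Each of the 37 was called in at least 2 of the 4 comparisons made, 10 of them in all 4. These comparisons were quiescence with proliferation, clonal expansion with quiescence, differentiation with clonal expansion and differentiation with quiescence. They share libraries, quiescence entering 3 of them, so they are not independent of each other. Of all genes tested, 23.7%, 68.8%, 73% and 66.3% were called in them, in that order. The number of comparisons calling a gene, and its highest and lowest stage, were not counted over all genes.

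**Figure D1:**
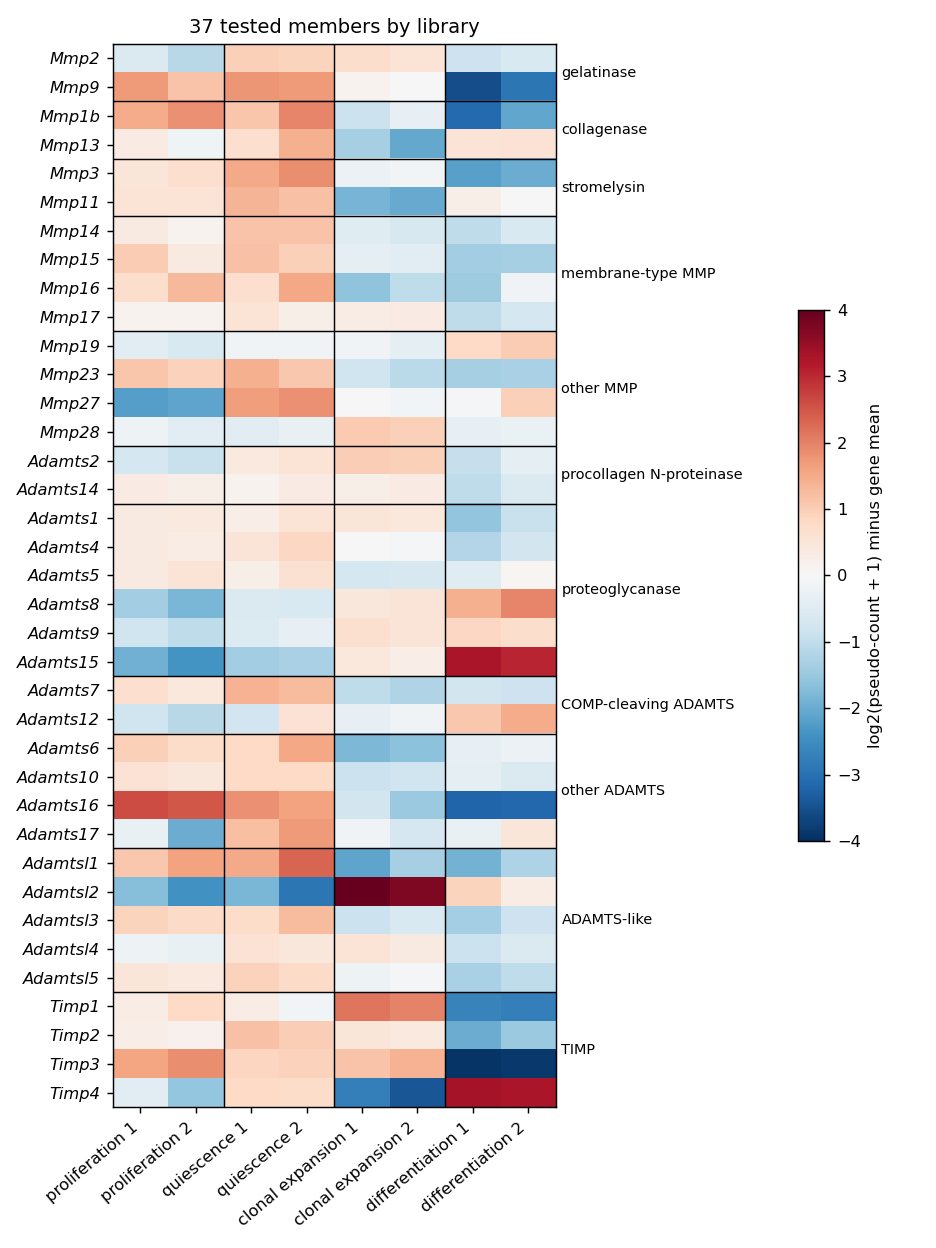
Each row is a tested member, and each column a library by stage; the colour is the log2(pseudo-count + 1) value minus that gene's mean over the 8 libraries, with the scale ending at 4 in each direction. Most rows were above their mean in the quiescent libraries and below it in the differentiated ones, with Timp4 and Adamts15 among the exceptions.

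At confluence more of these genes rose than fell, Mmp2, Mmp14 and Timp2 among them. Against proliferation, 15 of 37 members were called higher at quiescence and 2 lower, that is 45.9% called, where 23.7% of all genes tested were called (11.9% higher, 11.8% lower). The median log2 fold change of the members was 0.39, beside -0.01 for all genes. By family, 6 of 14 Mmp, 6 of 14 Adamts, 1 of 5 Adamtsl and 2 of 4 Timp genes were higher, and 7 of the 15 rose at least 2-fold. Adamts16 and Timp3 were the 2 called lower. Of the 17 calls 9 were kept under every other setting tried. Timp2 lost its call without proliferation library 2 (adjusted p = 0.0517), and Adamts8, Adamts9, Adamts16 and Mmp19 each lost theirs without at least 1 library, with adjusted p up to 0.248, 0.175, 0.167 and 0.266. With no filter on low values, 8 members were called higher, and Timp2, Timp4, Adamts15 and Adamts17 then had adjusted p of 0.0705, 0.0869, 0.0644 and 0.0935.

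Within 10 hours of the cocktail most MMP transcripts fell. Against quiescence, 8 of 37 members were called higher at clonal expansion and 22 lower, 81.1% in all, where 68.8% of all genes were called (34.4% in each direction). The members' median log2 fold change was -1.09, beside -0.01 for all genes. Of 14 Mmp genes 10 fell and 1 rose, and of 14 Adamts genes 7 fell and 4 rose. Among the 5 Adamtsl genes 3 fell and 1 rose, while the Timp genes divided into 2 higher and 2 lower. Scaling every library to the same total put the median log2 fold change of all genes at -0.239, and 3768 genes were then higher and 6302 lower, in place of 5038 and 5033. Under that scaling 6 members were higher and 25 lower. The call of Adamts8 was lost without clonal expansion library 2 (1.04, adjusted p = 0.061), and that of Adamts17 with quantile normalization (-1.26, adjusted p = 0.0527).

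**Figure D2:**
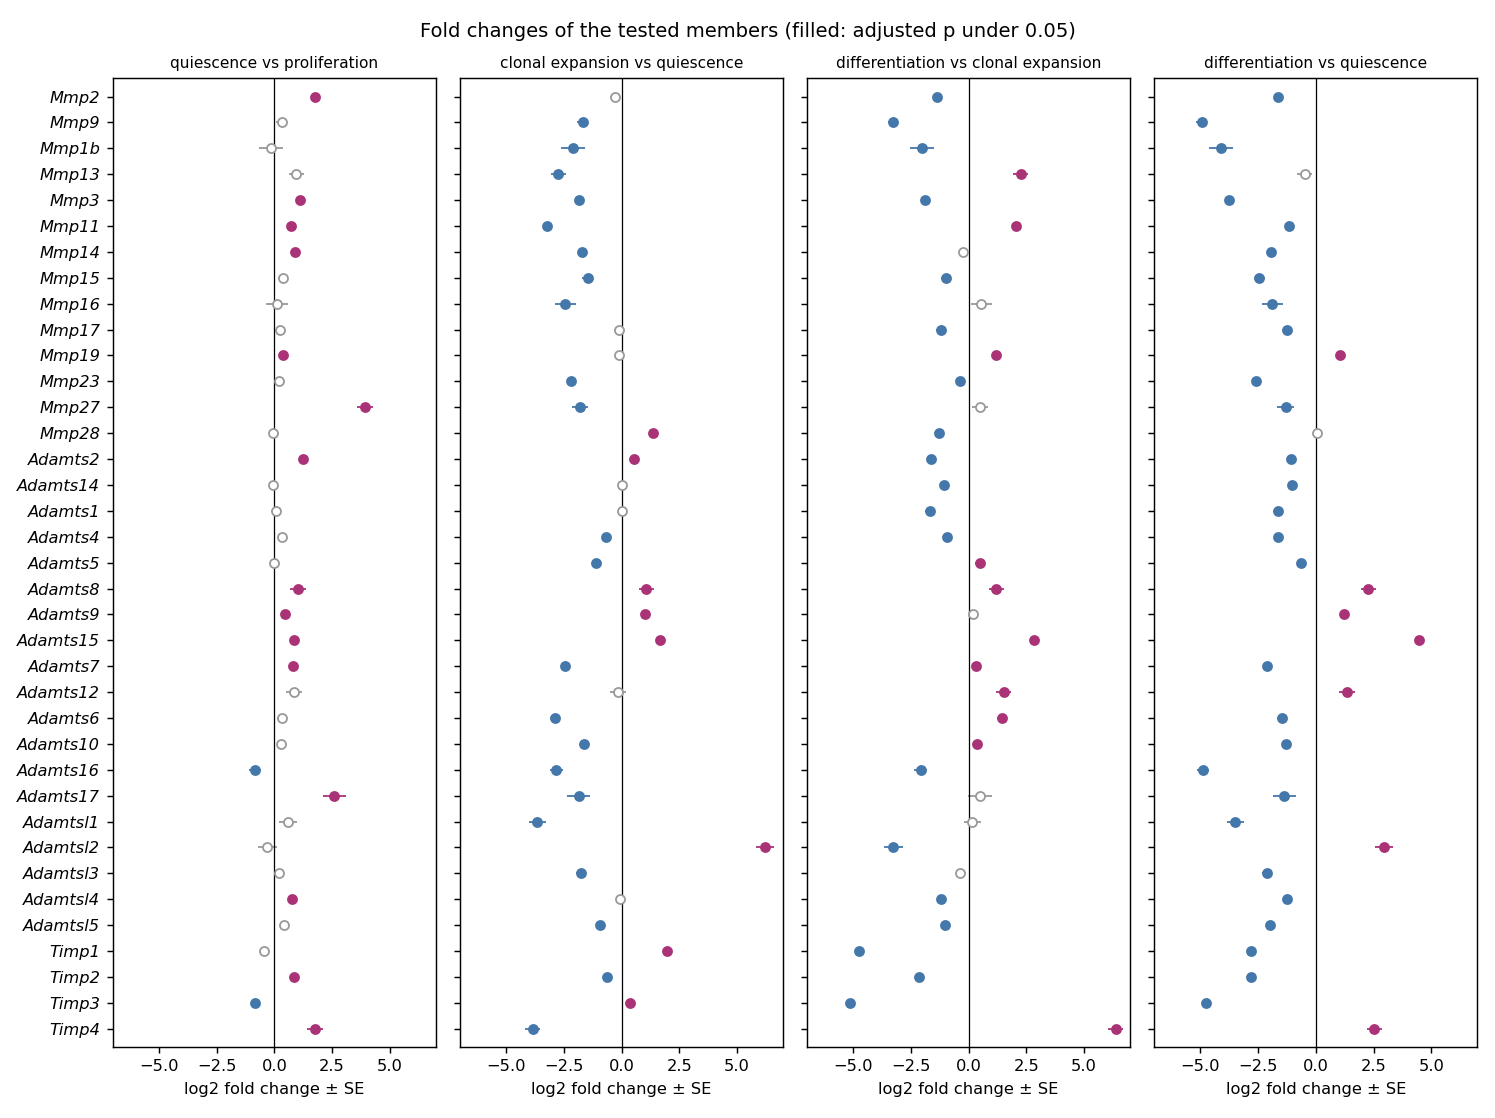
Log2 fold changes of the tested members in the 4 comparisons, with each point 1 gene and its bar the SE, filled where it was called at an adjusted p under 0.05, and a line at 0 for no change. The members lie mostly below 0 in clonal expansion against quiescence (22 called lower) and in differentiation against quiescence (28 called lower).

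From clonal expansion to differentiation most Mmp and Timp genes called fell, while the Adamts genes went in both directions. Of 37 members 11 were called higher and 19 lower, 81.1% in all, where 73% of all genes were called (36.8% higher, 36.2% lower). The members' median log2 fold change was -0.39, beside -0.00 for all genes. Adamts genes rose in 7 of 14 cases and fell in 5, whereas Mmp genes rose in 3 of 14 and fell in 8. No Adamtsl gene rose and 3 of 5 fell, and 3 of the 4 Timp genes fell. Whether the families differed was not tested. The call of Adamts8 was lost without differentiation library 2 (0.94, adjusted p = 0.0606) and with quantile normalization (0.36, adjusted p = 0.33). Of the 7 Adamts genes that rose, 3 lost their call without clonal expansion library 1 (Adamts5, Adamts7 and Adamts10), without differentiation library 2 (Adamts5, Adamts7 and Adamts8) and with no filter on low values (Adamts5, Adamts7 and Adamts12), which left 4 higher and 5 lower.

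Compared with quiescent cells, differentiated cells held less of most of these transcripts. Of 37 members 7 were called higher and 28 lower, 94.6% in all, where 66.3% of all genes were called (33.4% higher, 32.9% lower). The members' median log2 fold change was -1.45, beside 0.01 for all genes, and 27 of the 28 were at least 2-fold lower. The 7 higher were Timp4, Mmp19, Adamts8, Adamts9, Adamts12, Adamts15 and Adamtsl2. With every library scaled to the same total, the median log2 fold change of all genes was -0.227 and all genes split into 3795 higher and 6314 lower, in place of 4892 and 4825, while the members' counts were again 7 and 28. Mmp16 and Mmp27 lost their calls without differentiation library 1 (adjusted p = 0.0594 for both), and Adamts17 without either differentiated library or quiescence library 2 (adjusted p of 0.0506 to 0.239).

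The TIMPs did not move together. Timp1 (gene ID 21857, mm9 chromosome X, 20447292 to 20451863) is the inhibitor best known as induced by growth factors and cytokines. Its pseudo-counts were 10892 and 15309 while proliferating, 10971 and 8303 once quiescent, 38973 and 35060.1 during clonal expansion, and 1401 and 1341 once differentiated. Both clonal expansion libraries were above all others and both differentiated libraries below all others. It rose from quiescence to clonal expansion (log2 fold change 1.95 ± 0.17, adjusted p = 5.71e-06) and then fell (log2 fold change -4.75 ± 0.17, adjusted p = 8.97e-09).

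Timp2 (gene ID 21858, mm9 chromosome 11, 118162375 to 118216725), which binds the membrane protease Mmp14 and helps it to activate Mmp2, was the most abundant inhibitor at 3 of the 4 stages per kilobase of transcript. It stood at 113461 and 105887 in the proliferating, 213229 and 186987 in the quiescent, 133379.9 and 123795 in the clonal expansion and 23984 and 34195 in the differentiated libraries. The quiescent libraries were the highest and the differentiated ones the lowest, with no overlap of either with another stage. It rose at quiescence (log2 fold change 0.87 ± 0.16, adjusted p = 0.00419), fell at clonal expansion (log2 fold change -0.64 ± 0.16, adjusted p = 0.00531) and fell further by differentiation (log2 fold change -2.17 ± 0.16, adjusted p = 1.02e-06). The fall at clonal expansion was not called with no filter on low values (adjusted p = 0.0552).

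Timp3 (gene ID 21859, mm9 chromosome 10, 85763157 to 85812250), which is held in the matrix and also blocks several ADAM and ADAMTS proteases, was measured at 11280.0 and 13810.0 while proliferating, 6953 and 7236 once quiescent, 8481 and 9998 during clonal expansion, and 253 and 265 once differentiated. It fell at quiescence (log2 fold change -0.82 ± 0.13, adjusted p = 0.00176). Both differentiated libraries were below every other library, and the fall from clonal expansion (log2 fold change -5.15 ± 0.13, adjusted p = 1.12e-09) was the largest among the members. Its rise from quiescence to clonal expansion (log2 fold change 0.38 ± 0.13, adjusted p = 0.0243) lost its call when all libraries were given the same total (0.14, adjusted p = 0.357) or quantile normalized (0.18, adjusted p = 0.24), and without quiescence library 1 or clonal expansion library 2 (adjusted p = 0.0678 and 0.205).

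Timp4 (gene ID 110595, mm9 chromosome 6, 115195634 to 115201867), an inhibitor known to be abundant in heart and fat, went the other way. Its levels were 377 and 173 in the proliferating, 875 and 854 in the quiescent, 75.9 and 46.6 in the clonal expansion and 5150.1 and 4867 in the differentiated libraries. The differentiated libraries were the highest and the clonal expansion libraries the lowest, and no 2 stages overlapped. Timp4 rose at quiescence (log2 fold change 1.76 ± 0.33, adjusted p = 0.00446), fell at clonal expansion (log2 fold change -3.84 ± 0.33, adjusted p = 4.93e-06) and rose again at differentiation (log2 fold change 6.37 ± 0.33, adjusted p = 8.46e-08), the largest rise among the members.

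**Figure D3:**
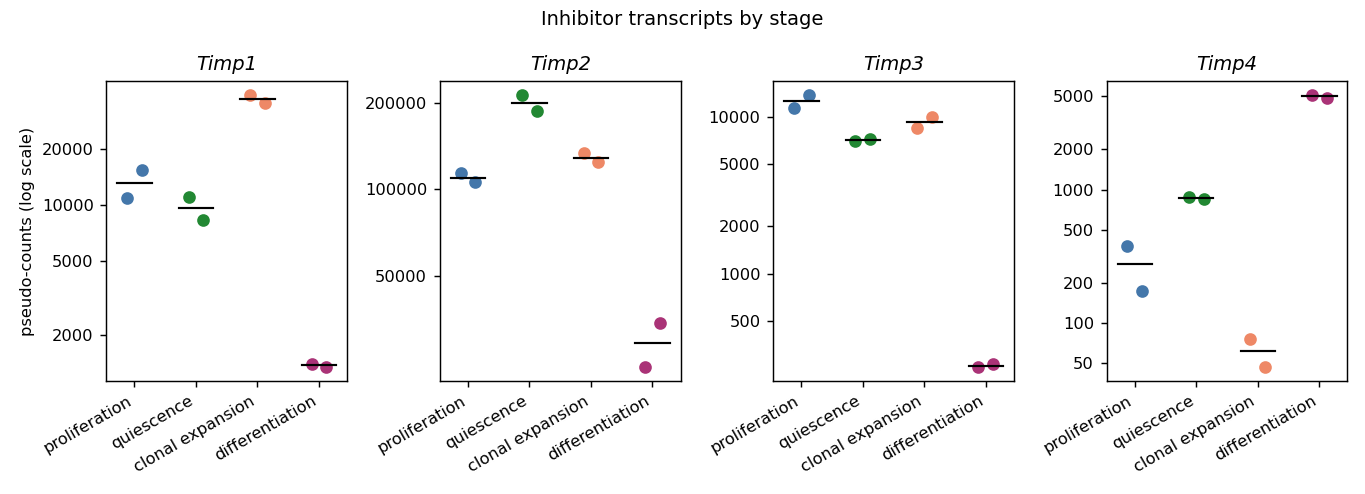
Pseudo-counts of the 4 Timp genes in each library on a log scale, with a line at the mean of the 2 libraries of a stage. At differentiation Timp1 (1401 and 1341), Timp2 (23984 and 34195) and Timp3 (253 and 265) were at their lowest and Timp4 (5150 and 4867) at its highest.

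Per kilobase, Timp2 and Timp1 made up most of the inhibitor transcript. Timp2 took 58.5% to 82% of the summed per-kilobase Timp level at proliferation and quiescence. At clonal expansion Timp1 was the larger, with 53.9% and 52.8%. Timp4 went from 0.0169% and 0.0113% of the sum at clonal expansion to 10.4% and 7.58% at differentiation. These shares depend on the lengths used, the longest transcript of each gene, which were 5496 nt for Timp4 and 883 nt for Timp1. A shorter length for Timp4 would raise its share. The Timp sum itself was 81908 and 75208 per kilobase at clonal expansion and 9044 and 11680 at differentiation.

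Timp1, Timp3 and Timp4 lie inside synapsin genes on the table's coordinates, namely Syn1, Syn3 and Syn2 in that order. The libraries were unstranded, so reads where the exons of such a pair overlap cannot be told apart. Syn2 also went from 80.2 to 201.8 in the libraries of the other stages to 25571 and 25888 at differentiation, the stage at which Timp4 was highest. Its part in the Timp4 values was not tested. Syn1 stayed at 99.9 to 296.8 and Syn3 at 106.7 to 284.1 in all libraries. Timp2 overlaps BC100451, which stayed at 18.5 to 233.4.

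Among the MMPs, the gelatinase Mmp2 and the membrane collagenase Mmp14 were the leading transcripts per kilobase in all 8 libraries. Mmp2 (gene ID 17390, mm9 chromosome 8, 95351227 to 95377319), which degrades denatured and basement membrane collagen, stood at 120685 and 82164 while proliferating, 347415 and 328148 once quiescent, 292649.6 and 262842 during clonal expansion, and 101394 and 117311 once differentiated. Each quiescent library was above every library of the other stages, and the differentiated libraries overlapped with the proliferating ones. It rose at quiescence (log2 fold change 1.76 ± 0.18, adjusted p = 0.000191) and was lower at differentiation than at clonal expansion (log2 fold change -1.35 ± 0.18, adjusted p = 6.11e-05). Between quiescence and clonal expansion the main analysis made no call for it (adjusted p = 0.177), whereas quantile normalization did (-0.77, adjusted p = 0.00525), as did the same total in every library (-0.52, adjusted p = 0.0234).

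Mmp14 (gene ID 17387, mm9 chromosome 14, 55050441 to 55060095), a transmembrane collagenase that also activates Mmp2, was at 78987 and 67789.9 in the proliferating, 136681 and 135353 in the quiescent, 43862 and 39932 in the clonal expansion and 30512 and 40414 in the differentiated libraries. The quiescent libraries again stood apart above the rest, while the differentiated and clonal expansion libraries overlapped. Mmp14 rose at quiescence (log2 fold change 0.89 ± 0.14, adjusted p = 0.0019) and fell at clonal expansion (log2 fold change -1.70 ± 0.14, adjusted p = 4.22e-06). The per-kilobase ratio of Mmp2 to Mmp14 was 1.61 and 1.28 in proliferating, 2.67 and 2.55 in quiescent, 7.02 and 6.92 in clonal expansion and 3.5 and 3.05 in differentiated libraries. The ratio of Timp2 to Mmp14 was 2.65 and 2.71 during clonal expansion, 0.686 and 0.739 once differentiated, and 1.21 to 1.36 in the other 4 libraries.

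Mmp9 (gene ID 17395, mm9 chromosome 2, 164773751 to 164781346) is the other gelatinase and is known from macrophages and neutrophils as well as from stroma. Its levels were 7393 and 5025 while proliferating, 7762 and 7403 once quiescent, 2497 and 2228 during clonal expansion, and 193 and 308 once differentiated. The differentiated libraries were below all others, and proliferation (5025 and 7393) lay just below quiescence with no call between them. It fell at clonal expansion (log2 fold change -1.68 ± 0.23, adjusted p = 9.63e-05) and again at differentiation (log2 fold change -3.27 ± 0.23, adjusted p = 6.12e-07). The summed level of 12 macrophage and blood markers fell with it, from 7405 and 5701 at quiescence to 4729 and 3478 in clonal expansion and 1561 and 1503 in differentiated libraries. Of the 7 of these markers tested, 1 was called higher and 3 lower at clonal expansion than at quiescence (68.8% of all genes called). From there to differentiation 1 was called higher and 3 lower (73% of all genes called). At differentiation against quiescence 4 were called lower and 0 higher (66.3% of all genes called). Their sum rested mainly on Lyz2 and Cd14, while Ptprc, Emr1 and Tyrobp never passed 2.73, 1.03 and 1.52. The part of these markers' source in the Mmp9 values was not tested.

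Of the other membrane-bound MMPs, Mmp15, Mmp16, Mmp17, Mmp24 and Mmp25 were at lower levels, with no library above 646.6. Mmp15 was at 572 and 367 in the proliferating, 647 and 556 in the quiescent, 220.2 and 213 in the clonal expansion and 108 and 112 in the differentiated libraries. It fell at clonal expansion (log2 fold change -1.47 ± 0.22, adjusted p = 0.000222) and further at differentiation (log2 fold change -0.97 ± 0.22, adjusted p = 0.00269). Mmp16 had stage means of 97.1 ± 28.1 at proliferation, 108 ± 45.4 at quiescence, 18.6 ± 5.58 at clonal expansion and 30 ± 18.4 at differentiation and fell at clonal expansion (log2 fold change -2.43 ± 0.47, adjusted p = 0.00109). Mmp17, which is held by a lipid anchor, had stage means of 141 ± 1.32 at proliferation, 171 ± 25.8 at quiescence, 159.7 ± 1.94 at clonal expansion and 70.4 ± 10.2 at differentiation and fell after clonal expansion (log2 fold change -1.18 ± 0.22, adjusted p = 0.000702). Between quiescence and clonal expansion Mmp17 was not called in the main analysis, and quantile normalization gave 0.56 (adjusted p = 0.0443). Mmp24 and Mmp25 had means below 10.

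Mmp11 and Mmp23 were both far lower at clonal expansion than at quiescence. Mmp11, a stromelysin secreted in active form, was at 4722 and 4685 while proliferating, 8325 and 7232 once quiescent, 878 and 797 during clonal expansion, and 3785 and 3278 once differentiated. It was highest at quiescence and lowest at clonal expansion with no overlap between stages. Mmp11 rose at quiescence (log2 fold change 0.72 ± 0.12, adjusted p = 0.00243), fell at clonal expansion (log2 fold change -3.21 ± 0.12, adjusted p = 7.08e-08) and came back in part at differentiation (log2 fold change 2.07 ± 0.12, adjusted p = 1.89e-07). Mmp23, a small membrane-anchored member, was at 8778 and 7764 in the proliferating, 10814 and 8494 in the quiescent, 2313 and 1938 in the clonal expansion and 1599.9 and 1638 in the differentiated libraries, and fell at clonal expansion (log2 fold change -2.18 ± 0.14, adjusted p = 9.26e-07). Its further change at differentiation (log2 fold change -0.39 ± 0.14, adjusted p = 0.0305) was lost without clonal expansion library 1 (-0.26, adjusted p = 0.215) and without either differentiated library (adjusted p = 0.118 and 0.0916).

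Of the 14 Mmp genes tested, Mmp28 was the 1 called higher at clonal expansion than at quiescence, and Mmp19 the 1 called higher at differentiation than at quiescence. Mmp19 (gene ID 58223, mm9 chromosome 10, 128227966 to 128237091), a protease with a broad range of matrix substrates, was at 10149.9 and 9041 while proliferating, 12477 and 12471 once quiescent, 12395 and 10679.9 during clonal expansion, and 24104 and 27869 once differentiated. The differentiated libraries were the highest (log2 fold change 1.17 ± 0.12, adjusted p = 7.69e-06 against clonal expansion), and the other 6 lay between 9041 and 12477. Its change at quiescence (log2 fold change 0.38 ± 0.12, adjusted p = 0.0391) was not called without proliferation library 2 (adjusted p = 0.266). Mmp28, also named epilysin, was at 3165 and 2732 in the proliferating, 2731 and 2977 in the quiescent, 7589 and 7086 in the clonal expansion and 2900.1 and 3053 in the differentiated libraries. It rose at clonal expansion (log2 fold change 1.36 ± 0.11, adjusted p = 3.96e-06) and then fell (log2 fold change -1.30 ± 0.11, adjusted p = 3.16e-06), and the libraries of the other 3 stages lay between 2731 and 3165.

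The 10 genes of an MMP cluster lie side by side on chromosome 9, within 427 kb (mm9 positions 7272514 to 7699416), with no other gene of the table between them. Their order along the chromosome is Mmp13, Mmp12, Mmp1b, Mmp3, Mmp1a, Mmp10, Mmp8, Mmp27, Mmp20 and Mmp7. Of the 10, 4 passed the threshold for testing: Mmp3, Mmp13, Mmp27 and Mmp1b. The sequences just before the transcription starts are given for these 4 and for Mmp1a and Mmp10, which were below that threshold. They are 100 bases long, from RefSeq on GRCm38.p6, written in the gene's own direction. Capitals mark a match to the AP-1 motif TGAGTCA on either strand, to the TATA box TATAAA or, for Mmp27, to the C/EBP motif TTGCNNAA, and no marked match overlaps another.
Mmp13, chr9:7272414-7272513, plus strand: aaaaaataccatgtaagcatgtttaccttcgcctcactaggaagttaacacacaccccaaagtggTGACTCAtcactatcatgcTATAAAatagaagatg
Mmp1b, chr9:7388027-7388126, minus strand: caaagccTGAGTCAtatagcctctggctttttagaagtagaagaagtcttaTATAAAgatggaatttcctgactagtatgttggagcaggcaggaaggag
Mmp3, chr9:7445722-7445821, plus strand: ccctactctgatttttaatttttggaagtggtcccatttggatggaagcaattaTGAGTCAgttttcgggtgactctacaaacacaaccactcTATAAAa
Mmp1a, chr9:7464041-7464140, plus strand: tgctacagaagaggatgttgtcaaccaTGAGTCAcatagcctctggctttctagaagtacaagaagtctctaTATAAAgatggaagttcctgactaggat
Mmp10, chr9:7502242-7502341, plus strand: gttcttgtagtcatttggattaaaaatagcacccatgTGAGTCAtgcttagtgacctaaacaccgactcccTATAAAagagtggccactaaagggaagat
Mmp27, chr9:7571296-7571395, plus strand: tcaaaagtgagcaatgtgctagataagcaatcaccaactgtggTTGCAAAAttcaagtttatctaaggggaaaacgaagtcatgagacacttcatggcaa

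An AP-1 site binds Fos and Jun proteins, and C/EBP sites bind the C/EBP factors of adipogenesis. Over the 250 bases before the start and on both strands, TGAGTCA was found in 7 of the 10 cluster genes and in 0 of the 26 other members that had a promoter in the RefSeq table. The matches lay 35 to 93 bases before the start. Of all 32851 promoters 4.46% held it. TATAAA was found in 7 of the cluster genes and 3 of the others, where 12.4% of all promoters held it. TTGCNNAA was found in 6 of the cluster genes and 0 of the others, where 9.56% of all promoters held it. Of the 23 tested members with a promoter, 3 held TGAGTCA, 5 TATAAA and 2 TTGCNNAA. The other TGAGTCA matches were in Mmp1a, Mmp7, Mmp10 and Mmp12, whose means were below 10. The cyclic AMP response element TGACGTCA (1.55% of all promoters), the palindromic glucocorticoid receptor motif (0.387%) and the PPAR direct repeat with 1 spacer base (0.0335%) were found in none of the 36. A member counted once if any of its promoters matched, whereas the shares are of single promoters. Mmp12 held its AP-1 and C/EBP matches in different promoters. A match is a run of letters, not a site shown to be bound.

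The 4 tested members of the cluster were all called lower at clonal expansion than at quiescence, where 34.4% of all genes were called lower. Their courses otherwise differed. Mmp3 (gene ID 17392, mm9 chromosome 9, 7445822 to 7455974), a stromelysin that cuts proteoglycans and activates other MMPs, was at 1302 and 1479 while proliferating, 2616 and 3322 once quiescent, 779 and 857 during clonal expansion, and 204 and 232 once differentiated. No 2 stages overlapped, with quiescence highest and differentiation lowest. Mmp3 rose at quiescence (log2 fold change 1.09 ± 0.16, adjusted p = 0.00119), fell at clonal expansion (log2 fold change -1.85 ± 0.16, adjusted p = 5.22e-06) and fell again at differentiation (log2 fold change -1.90 ± 0.16, adjusted p = 2.47e-06).

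Mmp13 (gene ID 17386, mm9 chromosome 9, 7272514 to 7283333), a collagenase of cartilage and bone, was at 134 and 94 in the proliferating, 167 and 282 in the quiescent, 40.9 and 24.8 in the clonal expansion and 155 and 156 in the differentiated libraries. The clonal expansion libraries were the lowest, and the other 6 ranged from 94 to 281.9. It fell at clonal expansion (log2 fold change -2.73 ± 0.33, adjusted p = 4.72e-05) and returned at differentiation (log2 fold change 2.25 ± 0.33, adjusted p = 0.000141). Mmp27 rose from a mean of 8.54 ± 0.36 at proliferation to 143 ± 10.1 at quiescence (log2 fold change 3.91 ± 0.35, adjusted p = 0.000102), the largest change of any member in that comparison, and had means of 40 ± 2.2 and 60.2 ± 29 afterwards. Its fall at clonal expansion was called (log2 fold change -1.81 ± 0.35, adjusted p = 0.00103). Mmp1b had stage means of 26.3 ± 4.56 at proliferation, 24.9 ± 10.1 at quiescence, 4.81 ± 1.51 at clonal expansion and 0.516 ± 0.72 at differentiation. The fall of Mmp1b at clonal expansion was called (log2 fold change -2.12 ± 0.52, adjusted p = 0.00422). Mmp1b and Mmp1a, both counterparts of human interstitial collagenase, are close copies, so reads could have been divided between them and their values are uncertain.

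**Figure D4:**
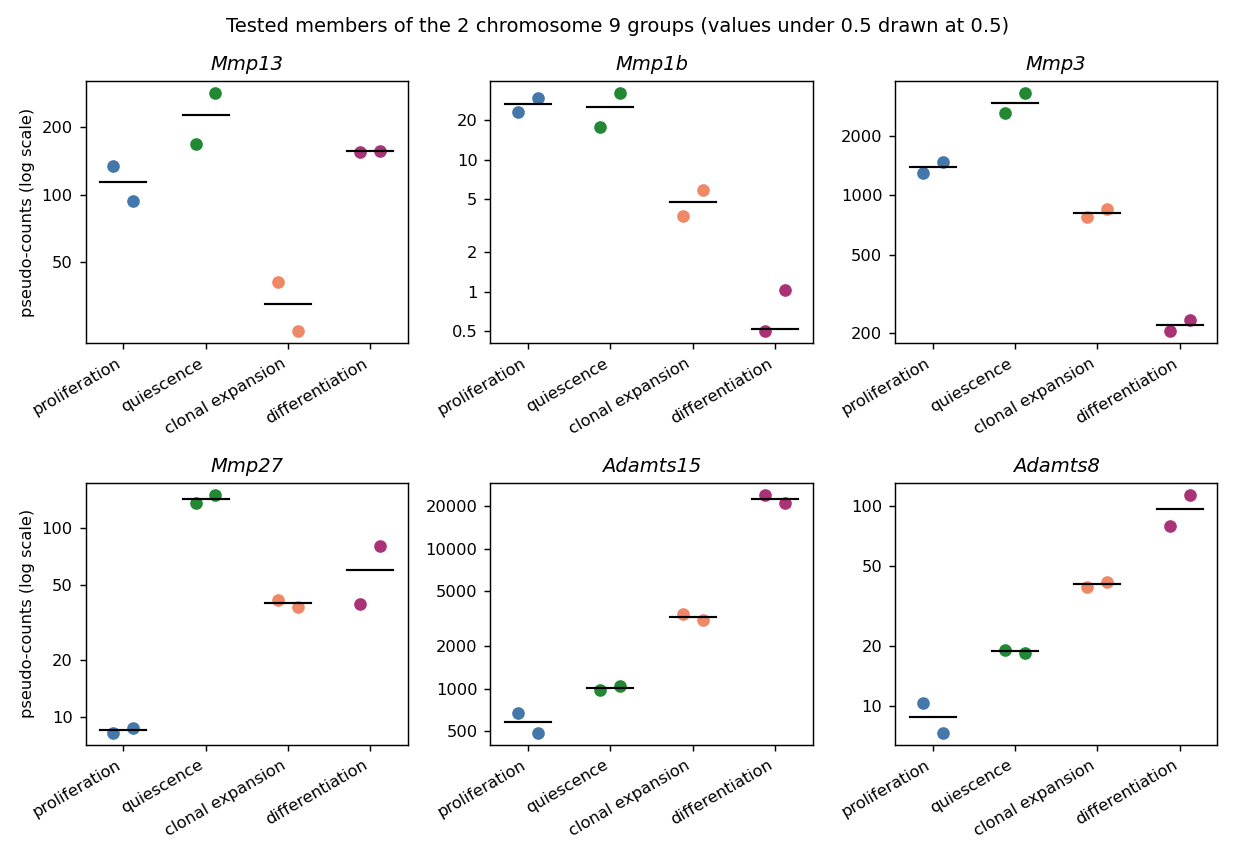
Pseudo-counts in each library (points, log scale, values under 0.5 drawn at 0.5) and stage means (lines) of the tested MMP cluster genes and of the chromosome 9 neighbours Adamts15 and Adamts8. Mmp3 (3322), Mmp13 (281.9), Mmp27 (149.8) and Mmp1b (32.1) each had their highest value in quiescence library 2.

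Not tested were 14 members with a mean below 10. Mmp7 and Mmp20 in the cluster, with Adamts3, Adamts18, Adamts19 and Adamts20, stayed under 1.2 in all 8 libraries. The highest single value was 3.75 for the macrophage elastase Mmp12, 10.6 for the neutrophil collagenase Mmp8, 12 for Mmp10, 16.6 for Mmp1a, 10.9 for Mmp21, 19.3 for Mmp24, 22.6 for Mmp25 and 12.6 for Adamts13. Just under the threshold was Mmp25 with a mean of 9.92, and just above it Mmp1b with 14.1. Of the tested members Adamts8, Mmp1b and Mmp27 had a stage mean below 10.

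The proteoglycan-cutting ADAMTS genes divided into those that fell and those that rose. Adamts1 (gene ID 11504, mm9 chromosome 16, 85794073 to 85803360), which cuts versican and aggrecan, was at 177288 and 179779 while proliferating, 167061 and 203293 once quiescent, 190992 and 184185 during clonal expansion, and 46475 and 73916 once differentiated. The 6 libraries before differentiation lay between 167061 and 203293, and both differentiated libraries were below them (log2 fold change -1.68 ± 0.19, adjusted p = 2.5e-05 against clonal expansion). Adamts4 was at 5907 and 5554 in the proliferating, 6478 and 8009 in the quiescent, 4637 and 4283 in the clonal expansion and 2035 and 2713 in the differentiated libraries, and fell at clonal expansion (log2 fold change -0.69 ± 0.15, adjusted p = 0.00235) and differentiation (log2 fold change -0.92 ± 0.15, adjusted p = 0.000317). Both Adamts4 and Adamts5 are known as aggrecanases.

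Adamts5, 55 kb from Adamts1 on chromosome 16, was at 28480.3 and 32582 while proliferating, 26105 and 34129.6 once quiescent, 13591 and 14475 during clonal expansion, and 16098 and 23569.9 once differentiated. The clonal expansion libraries were the lowest (log2 fold change -1.09 ± 0.18, adjusted p = 0.000404). The difference of its differentiated libraries from those of clonal expansion (log2 fold change 0.47 ± 0.18, adjusted p = 0.0371) lost its call without differentiation library 2 (0.20, adjusted p = 0.352) and without 4 other libraries, and that from quiescence (log2 fold change -0.62 ± 0.18, adjusted p = 0.0125) lost it without differentiation library 1 (-0.34, adjusted p = 0.138) or quiescence library 2 (adjusted p = 0.0741). Adamts9, which cuts versican, was at 8719 and 7544 in the proliferating, 10277 and 12032 in the quiescent, 23516 and 21664 in the clonal expansion and 26709 and 24889 in the differentiated libraries. It was higher in all libraries of clonal expansion and differentiation than in any other (log2 fold change 1.02 ± 0.12, adjusted p = 3.05e-05 at clonal expansion).

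Adamts15 (gene ID 235130, mm9 chromosome 9, 30706740 to 30730037), a protease of versican and aggrecan, rose at every step. It was at 668 and 482 while proliferating, 982 and 1046 once quiescent, 3408 and 3076 during clonal expansion, and 24289.8 and 21209 once differentiated. No 2 stages overlapped. The steps were to quiescence (log2 fold change 0.84 ± 0.16, adjusted p = 0.00457), to clonal expansion (log2 fold change 1.67 ± 0.16, adjusted p = 8.99e-06) and to differentiation (log2 fold change 2.81 ± 0.16, adjusted p = 1.48e-07). The rise from quiescence to differentiation (log2 fold change 4.48 ± 0.16, adjusted p = 1.08e-08) was the largest of any member in that comparison. Its neighbour Adamts8 lies 20.1 kb away with no gene between them, and had stage means of 8.84 ± 2.12 at proliferation, 18.7 ± 0.331 at quiescence, 40.6 ± 1.53 at clonal expansion and 96.4 ± 24.7 at differentiation. Adamts8 also rose from quiescence to differentiation (log2 fold change 2.28 ± 0.33, adjusted p = 0.000142). Per kilobase the 2 genes stood at 26.5 and 3838 at differentiation.

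The procollagen N-proteinases, which remove the amino-terminal propeptide of fibrillar procollagens, were lower in differentiated than in clonal expansion cells where tested. Adamts2 was at 11445 and 10063 in the proliferating, 24401 and 27202 in the quiescent, 37386 and 36744 in the clonal expansion and 9984 and 14799 in the differentiated libraries. It rose at quiescence (log2 fold change 1.26 ± 0.16, adjusted p = 0.000599), and its libraries at clonal expansion were the highest (log2 fold change 0.52 ± 0.16, adjusted p = 0.0161), a change not called with the same total in each library (0.29, adjusted p = 0.143) or with quantile normalization (0.23, adjusted p = 0.238), nor without quiescence library 1 or clonal expansion library 1 (adjusted p = 0.0618 and 0.0579). It then fell (log2 fold change -1.61 ± 0.16, adjusted p = 9.88e-06). Adamts14 was at 4373 and 4099 while proliferating, 3826 and 4372 once quiescent, 4032 and 4307 during clonal expansion, and 1713 and 2322 once differentiated, with only the differentiated libraries apart from the rest (log2 fold change -1.06 ± 0.15, adjusted p = 9.39e-05).

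Adamts7 and Adamts12, both known to cut cartilage oligomeric matrix protein, moved apart. Adamts7 was at 3391 and 2829 in the proliferating, 5581 and 5132 in the quiescent, 1057 and 919 in the clonal expansion and 1275 and 1199.9 in the differentiated libraries. Adamts7 rose at quiescence (log2 fold change 0.79 ± 0.13, adjusted p = 0.00245) and fell at clonal expansion (log2 fold change -2.44 ± 0.13, adjusted p = 3.69e-07). Its small difference at differentiation (log2 fold change 0.33 ± 0.13, adjusted p = 0.0462) was lost when any 1 of the 4 libraries compared was left out, with adjusted p of 0.0503 to 0.273, and with quantile normalization (0.11, adjusted p = 0.468).

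Adamts12 (gene ID 239337, mm9 chromosome 15, 10994545 to 11276622) was at 12007 and 9575 while proliferating, 12239.5 and 30662 once quiescent, 16470.3 and 18647 during clonal expansion, and 43317 and 57299 once differentiated. Its differentiated libraries were above all others (log2 fold change 1.51 ± 0.34, adjusted p = 0.00226 against clonal expansion), while its quiescent libraries were far from each other and covered the range of the clonal expansion ones. Leaving out quiescence library 1 gave a higher level at quiescence than at proliferation (1.52, adjusted p = 0.000628) and a fall at clonal expansion (-0.81, adjusted p = 0.00283), and leaving out quiescence library 2 gave a rise there (0.52, adjusted p = 0.0271). The difference of differentiation from quiescence (log2 fold change 1.36 ± 0.34, adjusted p = 0.0048) was not called without differentiation library 2 (adjusted p = 0.0571). With no filter on low values neither difference was called (adjusted p = 0.0569 against clonal expansion and 0.0825 against quiescence).

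Among the other ADAMTS genes, Adamts16 fell at each step. It was at 724 and 667 in the proliferating, 417 and 359.5 in the quiescent, 70.4 and 41.5 in the clonal expansion and 11.9 and 12.3 in the differentiated libraries, with no overlap between stages. It fell at clonal expansion (log2 fold change -2.82 ± 0.27, adjusted p = 9.5e-06) and again at differentiation (log2 fold change -2.08 ± 0.27, adjusted p = 5.5e-05). Its difference between quiescence and proliferation (log2 fold change -0.84 ± 0.27, adjusted p = 0.0467) was not called when any 1 of those 4 libraries was left out, with adjusted p of 0.0791 to 0.167.

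Adamts6 was at 2361 and 2029.6 while proliferating, 2101 and 3514 once quiescent, 346 and 387 during clonal expansion, and 965 and 1027 once differentiated. Its clonal expansion libraries were below all others (log2 fold change -2.89 ± 0.21, adjusted p = 1.87e-06), and it rose again at differentiation (log2 fold change 1.44 ± 0.21, adjusted p = 0.000152). Adamts10, which binds fibrillin, was at 13623 and 12674 in the proliferating, 16127 and 15878 in the quiescent, 5069 and 5244 in the clonal expansion and 6942 and 6216 in the differentiated libraries. It too was lowest at clonal expansion (log2 fold change -1.63 ± 0.10, adjusted p = 6.22e-07). Its rise afterwards (log2 fold change 0.35 ± 0.10, adjusted p = 0.00834) was lost without clonal expansion library 1 (adjusted p = 0.0623) or differentiation library 1 (adjusted p = 0.0718). Adamts17 had stage means of 27 ± 20.8 at proliferation, 145 ± 35.2 at quiescence, 39.2 ± 9.83 at clonal expansion and 57.3 ± 21.8 at differentiation, with a rise at quiescence (log2 fold change 2.60 ± 0.51, adjusted p = 0.00578) and a fall at clonal expansion (log2 fold change -1.86 ± 0.51, adjusted p = 0.00852).

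Per kilobase, Adamts1 was the leading Adamts transcript at all 4 stages. It took 67.3% to 74.5% of the summed Adamts level in the 6 libraries before differentiation, and 34.3% and 42.4% in the differentiated ones. There Adamts12 (18.2% and 18.7%) and Adamts15 (14.8% and 10%) followed. The Adamts sum was 49409 to 61817 per kilobase before differentiation and 27732 and 35693 at differentiation.

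The ADAMTS-like genes held the sharpest single rise at clonal expansion. Adamtsl2 (gene ID 77794, mm9 chromosome 2, 26934901 to 26964133), which binds fibrillin and a TGF-beta binding protein of the matrix, was at 21.8 and 12.8 while proliferating, 19.8 and 8.98 once quiescent, 1174 and 986 during clonal expansion, and 138 and 90 once differentiated. Both clonal expansion libraries were above all others, the differentiated ones came next, and proliferation and quiescence overlapped. It rose at clonal expansion (log2 fold change 6.22 ± 0.40, adjusted p = 8.43e-07), the largest rise of any member in that comparison, and fell afterwards (log2 fold change -3.26 ± 0.40, adjusted p = 3.55e-05), ending above quiescence (log2 fold change 2.96 ± 0.40, adjusted p = 8.88e-05).

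The other Adamtsl genes were lower in differentiated than in quiescent cells. Adamtsl1 was at 341 and 498 in the proliferating, 467 and 824 in the quiescent, 36.6 and 64.2 in the clonal expansion and 43.3 and 68.1 in the differentiated libraries, and it fell at clonal expansion (log2 fold change -3.65 ± 0.37, adjusted p = 1.45e-05). Adamtsl3 was at 2988 and 2706 while proliferating, 2655 and 3897 once quiescent, 884 and 1048 during clonal expansion, and 625 and 899 once differentiated, and it also fell there (log2 fold change -1.74 ± 0.21, adjusted p = 5.27e-05). For both, the libraries of clonal expansion and differentiation overlapped and lay below those of the earlier stages.

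Adamtsl4, a fibrillin-associated protein of the eye and other tissues, was at 4762 and 4497 in the proliferating, 8209 and 7497 in the quiescent, 8074 and 7032 in the clonal expansion and 3031 and 3669.8 in the differentiated libraries. It rose at quiescence (log2 fold change 0.76 ± 0.12, adjusted p = 0.00207), overlapped between quiescence and clonal expansion, and fell at differentiation (log2 fold change -1.18 ± 0.12, adjusted p = 1.23e-05). Adamtsl5 was at 3774 and 3529.6 while proliferating, 5128 and 4562 once quiescent, 2371 and 2628 during clonal expansion, and 1100.1 and 1351 once differentiated, and it fell at clonal expansion (log2 fold change -0.95 ± 0.13, adjusted p = 0.000118) and at differentiation (log2 fold change -1.03 ± 0.13, adjusted p = 5.15e-05).

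Set against each other per kilobase, inhibitor transcripts were scarcest relative to MMP transcripts in differentiated cells. The ratio of the Timp sum to the Mmp sum was 0.575 and 0.799 in proliferating, 0.409 and 0.369 in quiescent, 0.695 and 0.71 in clonal expansion and 0.169 and 0.186 in differentiated libraries. Without division by length the ratio was 0.576 and 0.745, 0.438 and 0.401, 0.498 and 0.517, and 0.186 and 0.209 at the same stages, so clonal expansion no longer reached the level of proliferation. Differentiation was lowest in both. The Mmp sum was 174947 and 166580 per kilobase at quiescence and 53356 and 62627 at differentiation, and Mmp2 alone made up 43.7% to 80.7% of it.

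**Figure D5:**
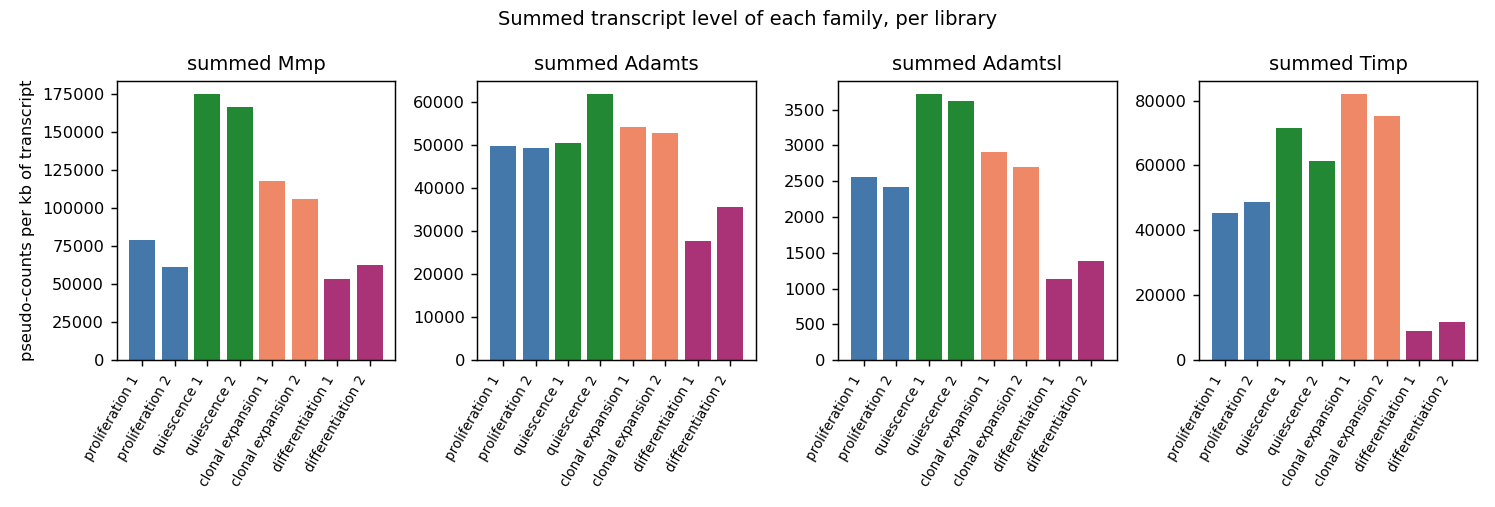
Per-kilobase sums of the Mmp, Adamts, Adamtsl and Timp genes in each library, by stage. The Timp sum fell from 81908 and 75208 at clonal expansion to 9044 and 11680 at differentiation.

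Related genes were taken from lists of the plasminogen system, ADAM proteases, activators and inhibitors, other matrix proteases and substrates. Their counts stand against the share of all genes called, which was 23.7% for quiescence against proliferation, 68.8% for clonal expansion against quiescence, 73% for differentiation against clonal expansion and 66.3% for differentiation against quiescence. In the plasminogen system, which activates MMPs outside the cell, 0 of 9 genes rose and 3 fell at quiescence, 3 rose and 3 fell at clonal expansion, 0 rose and 8 fell from there to differentiation, and 1 was higher and 7 lower at differentiation than at quiescence. Plaur, the urokinase receptor, was at 2448 and 4079 in the proliferating, 1229 and 1230.0 in the quiescent, 7273 and 6819.7 in the clonal expansion and 287 and 306 in the differentiated libraries. It rose (log2 fold change 2.52 ± 0.20, adjusted p = 3.04e-06) and then fell (log2 fold change -4.56 ± 0.20, adjusted p = 2.95e-08), with its highest and lowest stages the same as those of Timp1. The activators fell at clonal expansion, both Plat (log2 fold change -2.24 ± 0.16, adjusted p = 1.45e-06) and Plau (log2 fold change -1.91 ± 0.18, adjusted p = 8.57e-06).

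Of the 10 ADAM genes, 2 rose and 2 fell at quiescence, 3 rose and 4 fell at clonal expansion, 4 rose and 4 fell from there to differentiation, and 3 were higher and 5 lower at differentiation than at quiescence. Adam8, a sheddase of leukocytes and other cells, was at 2476 and 2999.5 while proliferating, 1500.1 and 1503 once quiescent, 10591 and 11106 during clonal expansion, and 443 and 369 once differentiated, and it rose (log2 fold change 2.85 ± 0.14, adjusted p = 2.01e-07) and fell (log2 fold change -4.74 ± 0.14, adjusted p = 2.64e-09). Adam33 was at 1406 and 1229 in the proliferating, 3312 and 2888 in the quiescent, 182 and 160.2 in the clonal expansion and 950.3 and 994 in the differentiated libraries, lowest at clonal expansion (log2 fold change -4.17 ± 0.15, adjusted p = 5.36e-08).

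Of 13 activators, inhibitors and cofactors, 4 rose and 3 fell at quiescence, 5 rose and 3 fell at clonal expansion, 5 rose and 6 fell from there to differentiation, and 6 were higher and 5 lower at differentiation than at quiescence. Among them, Pcsk6 passed the mean required for testing only through the differentiated libraries (127.9 and 192.6). Its being called higher there thus followed in part from that filter. Reck, a membrane-anchored MMP inhibitor, was at 5420.1 and 4498 while proliferating, 8629.6 and 9524 once quiescent, 4387 and 4690.4 during clonal expansion, and 3015 and 3596 once differentiated, and it rose at quiescence (log2 fold change 0.88 ± 0.13, adjusted p = 0.0012) and was lower at differentiation than then (log2 fold change -1.46 ± 0.13, adjusted p = 4.44e-06). Papln, an ADAMTS-like matrix protein, was at 7.07 and 2.77 in the proliferating, 20.6 and 37.7 in the quiescent, 18.4 and 23.4 in the clonal expansion and 328 and 315 in the differentiated libraries, and it rose at differentiation (log2 fold change 3.89 ± 0.43, adjusted p = 1.67e-05). Of 11 procollagen and other matrix proteases, 5 rose and 1 fell at quiescence, 2 rose and 4 fell at clonal expansion, 5 rose and 5 fell from there to differentiation, and 2 were higher and 7 lower at differentiation than at quiescence. Tll1, a procollagen C-proteinase, was at 1298 and 1302 while proliferating, 751 and 612 once quiescent, 9775 and 8849 during clonal expansion, and 44.8 and 47.7 once differentiated, with a rise (log2 fold change 3.78 ± 0.15, adjusted p = 8.06e-08) and then a fall (log2 fold change -7.62 ± 0.15, adjusted p = 4.93e-10).

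Of 24 substrates, 11 rose and 2 fell at quiescence, 7 rose and 12 fell at clonal expansion, 4 rose and 15 fell from there to differentiation, and 4 were higher and 19 lower at differentiation than at quiescence. The substrate gene Bcan passed the mean required for testing only through the quiescent libraries (40.4 and 16.6). Its being called lower than at quiescence, at clonal expansion and at differentiation, thus followed in part from that filter. Col4a1, a basement membrane collagen, rose at clonal expansion (log2 fold change 2.48 ± 0.14, adjusted p = 3.86e-07) and was still higher than at quiescence in differentiated cells (log2 fold change 1.31 ± 0.14, adjusted p = 1.42e-05). Vcan, which encodes the versican that several of these proteases cut, was at 291839 and 259165 in the proliferating, 223673 and 367727 in the quiescent, 1163645 and 1336175 in the clonal expansion and 174545 and 194668 in the differentiated libraries. It rose at clonal expansion (log2 fold change 2.12 ± 0.21, adjusted p = 1.42e-05) and fell at differentiation (log2 fold change -2.76 ± 0.21, adjusted p = 1.4e-06). Fbn1, the fibrillin that several ADAMTS-like proteins bind, fell at differentiation (log2 fold change -3.35 ± 0.12, adjusted p = 9.05e-09). Comp, a substrate of Adamts7 and Adamts12, was lowest at clonal expansion (log2 fold change -3.44 ± 0.21, adjusted p = 6.88e-07) and returned (log2 fold change 3.60 ± 0.21, adjusted p = 1.91e-07).

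Markers of other cell types also moved with the stages. At differentiation against quiescence 66.3% of all genes were called (33.4% higher, 32.9% lower), and the marker calls below are for that comparison unless another is named. Of 3 muscle markers tested, all were called higher. The sum over the list was 9948 and 11023 at differentiation and 309.5 to 1704 elsewhere, while Myod1 and Myog never passed 2.05 and 2.06. Acta1 was at 159 and 206 at differentiation and at 163 and 200 at proliferation. Of 4 epithelial markers 3 were called higher and 1 lower, and the list's sum was 955.8 and 1985 at differentiation and 16.8 to 122.8 elsewhere, with Epcam at 0. All 3 neutrophil markers tested were called higher, with a sum over the list of 1089 and 1303 at differentiation and 10.3 to 850.2 elsewhere and S100a9 near 0. Elane and Mpo, and Krt8, Krt14 and Krt18 of the epithelial list, passed the mean of 10 only through the differentiated libraries. Their being called higher there thus followed in part from that filter. Of 6 chondrocyte and osteoblast markers 2 were called higher and 3 lower, and the list's sum went from 30974 and 30809 at proliferation to 4768 and 5153 at differentiation. Ibsp, 1 of the 2 higher, also passed that mean only through the differentiated libraries. All 3 endothelial markers tested were called lower, with a sum over the list of 163.8 and 135.4 at differentiation and 222.2 to 310.8 elsewhere. From clonal expansion to differentiation, however, 2 of them were called higher and 1 lower. The part of all these markers' sources in the members' changes was not tested.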

How the data were processed

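Total RNA of 3T3-L1 cells was made into unstranded TruSeq libraries and read on a HiSeq as single reads of 100 nt, per the labels' protocols. The deposited table gives a signal per gene and library, the pseudo-counts that the authors made with edgeR. The tools in the submitters' processing notes were CASAVA 1.8.2 and edgeR, with mm9 as the genome, and the aligner and gene models are not given in the sources used here. Raw counts were not used here, so no count test was run.

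Tables were handled in Python 3.11.15 (pandas 2.3.3, numpy 2.4.6) and figures drawn with matplotlib 3.10.9. The model was a limma 3.58.1 fit (R 4.3.3) of log2(value + 1) by stage, all 8 libraries together, trended by mean level, with 4 residual and 9.78 total degrees of freedom. Its two-sided p-values were Benjamini-Hochberg adjusted across the 14647 genes whose mean reached 10. The script was tested on simulated data. Tests were chosen for normalized values, and the 4 stages share 1 estimate of the spread.

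Every library's value is given for members with a stage mean of at least 200 and a called log2 fold change of at least 1 in size, and for all Timp genes; from each related list, genes among the 3 largest called changes per direction and comparison are named. Some genes of these lists are not reported here by name. The members and lists were chosen with earlier results of these data known. The motifs, the promoters printed, the ratios and the split by family were chosen after the values were seen.

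Per-kilobase levels divide by the longest transcript in GENCODE M21, found for all 51 members; that build is used only for lengths. Promoters are from RefSeq on GRCm38.p6, where 36 of 51 members had an entry. Positions given as mm9 are the deposited table's. Other scalings, pseudocounts, filters, a replicate block and fits without 1 library were tried as alternatives. Leaving out 1 of the 2 libraries of a stage assumes that the lone library varies like those of the other stages.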

Additional observations from a re-analysis of the deposited data

How the results depend on the processing

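Under the alternatives tried (other pseudocounts and filters, 2 other scalings, a length correction, no trend, a replicate block and each library left out), members called in every setting that tested them numbered 9 of 17 for quiescence against proliferation, 25 of 30 for clonal expansion against quiescence, 24 of 30 for differentiation against clonal expansion and 30 of 35 for differentiation against quiescence. Requiring a mean of at least 50 left 35 members, without Mmp1b and Adamts8. Quiescence against proliferation depended most on the choices. There, with no filter on low values, 8 members were higher in place of 15 and 1757 genes of all in place of 3472. Without the mean-variance trend 1 member was lower in place of 2. With 1 library left out in turn, 11 to 16 members were higher, 1 to 2 lower, and 1304 to 3536 genes were called, the fewest without proliferation library 2. Quantile normalization moved the median of all genes by -0.117 for differentiation against clonal expansion.

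Among members called under at least 1 setting in the comparison concerned, directions turned in 5. Members never called in a comparison were not included. Adamts6 at quiescence ranged from -0.06 to 0.68 over the libraries left out. At clonal expansion against quiescence, Adamts12 ranged from -0.81 to 0.52, Adamtsl4 from -0.16 to 0.04, and Mmp17 from -0.24 to 0.07, with 0.56 under quantile normalization. Adamtsl4 gave 0.01 without quiescence library 1, Mmp17 0.07 without the same library. Mmp27 at differentiation against clonal expansion ranged from -0.01 to 1.00, with -0.33 under quantile normalization. The cause was not tested.

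The experiment numbers were not taken as pairing the libraries, since the labels do not say that they pair cultures. The deviations of same-numbered libraries correlated at 0.0126 to 0.354 over the pairs of stages, all positive, with 4 of 6 pairs below 0.1. With the number as a replicate block, 4005, 10378, 10931 and 10068 genes were called in the 4 comparisons in their order above, in place of 3472, 10071, 10694 and 9717.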
